A study of Mus musculus with 8 samples.

Results

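Ighv1-47 and Igkv1-88 are a pair of immunoglobulin V genes whose read counts were uneven between kidney libraries of lupus-prone mice. They are the 2 rows that carry these names in a deposited table of 1931 genes, of which 19 are annotated as immunoglobulin V genes, 8 of the heavy chain and 11 of the kappa light chain. The pair was selected on measured values, being chosen by its read counts in these 8 libraries and by its difference between the groups. Among the 19, these 2 alone had an adjusted p under 0.05 in the authors' deposited table, where 8.13% of all rows had one. Igkv1-88 lay just inside that limit, at 0.0473, and Ighv5-15 was the nearest V gene outside it, at 0.0634. For 7 of the 19 the adjusted p listed there stands at the top of its scale, out of order with the unadjusted p. Such values may mark rows left out of the adjustment, so the pair may stand alone only among the other V genes. The values below therefore describe the pair, and no test of its difference is offered as support.

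All 8 libraries came from kidneys of MRL-lpr mice at 12 weeks of age. Every animal of this strain, controls included, has a defective Fas gene, which encodes a death receptor, and the strain develops autoantibodies and kidney inflammation. The 4 control libraries carry the treatment label control, and the 4 propionate libraries come from animals given 200 mM propionate, a short-chain fatty acid, in drinking water for 6 weeks. The labels number the libraries within each group but do not say that each is a separate animal, so the spread may be partly technical.

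The libraries held between 20005328 and 26711127 assigned reads, and the V genes listed took between 88 and 4603 of them. Of 16 kidney epithelium markers 5 are in the table. The highest was Slc34a1, the phosphate transporter of the proximal tubule. It ranged from 65774 to 82409 reads after division by the authors' size factor for each library (scaled counts). The lowest, Slc4a1, ranged from 1031 to 2385 scaled counts. No row of the table had an unadjusted p above 0.05 between these same libraries, so the rows had been chosen for a difference, and the 19 V genes are not the kidney's whole V repertoire.

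An antibody pairs a heavy chain with a light chain, kappa or lambda, and each chain's variable domain begins with a V segment. A B cell joins 1 V segment to the downstream segments of its heavy chain locus and, separately, of a light chain locus, and its progeny keep that choice. Reads over a V gene in bulk tissue come mainly from such rearranged transcripts, most abundantly in antibody-secreting plasma cells, so V genes read out which clones are present as well as how many B-lineage cells there are. In bulk RNA, fewer cells of a type and less RNA per cell cannot be told apart. V transcripts can also carry somatic mutations, and the reference segments do not include the MRL strain's own alleles.

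The segments themselves are shown because reads of close relatives can be counted for one another. The sequences are the last 300 coding bases of each gene, all in its second exon, from GENCODE M21, build GRCm38. They were matched by gene name, and each of the pair is set beside the V gene of closest sequence. Capitals mark the bases at which a gene and its relative differ. Ighv1-47 and Ighv1-74 belong to the same heavy chain family, and the bases shown lie at chr12:114991108-114991407 and chr12:115802648-115802947, both on the minus strand. Igkv1-88 and Igkv1-110 belong to the same kappa family, and their bases lie at chr6:68862265-68862564 on the minus strand and at chr6:68270968-68271267 on the plus strand.
Ighv1-47: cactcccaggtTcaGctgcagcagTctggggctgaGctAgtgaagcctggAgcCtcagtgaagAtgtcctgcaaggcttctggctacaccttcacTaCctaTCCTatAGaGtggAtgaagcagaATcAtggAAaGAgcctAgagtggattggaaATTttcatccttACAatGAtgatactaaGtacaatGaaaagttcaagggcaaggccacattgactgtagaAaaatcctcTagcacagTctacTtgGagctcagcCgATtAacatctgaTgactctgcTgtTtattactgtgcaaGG
Ighv1-74: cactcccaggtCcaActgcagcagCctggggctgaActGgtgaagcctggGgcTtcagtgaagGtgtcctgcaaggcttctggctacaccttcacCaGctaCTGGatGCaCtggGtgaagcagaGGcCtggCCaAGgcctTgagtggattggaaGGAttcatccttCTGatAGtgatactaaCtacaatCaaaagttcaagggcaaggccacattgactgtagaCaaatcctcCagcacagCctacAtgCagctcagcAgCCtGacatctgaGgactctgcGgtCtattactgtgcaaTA
Igkv1-88: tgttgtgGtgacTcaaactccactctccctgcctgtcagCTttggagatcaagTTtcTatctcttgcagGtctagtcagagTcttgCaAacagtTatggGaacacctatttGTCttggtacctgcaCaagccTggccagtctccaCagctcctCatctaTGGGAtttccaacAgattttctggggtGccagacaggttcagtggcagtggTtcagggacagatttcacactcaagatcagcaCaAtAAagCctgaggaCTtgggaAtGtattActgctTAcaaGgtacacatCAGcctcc
Igkv1-110: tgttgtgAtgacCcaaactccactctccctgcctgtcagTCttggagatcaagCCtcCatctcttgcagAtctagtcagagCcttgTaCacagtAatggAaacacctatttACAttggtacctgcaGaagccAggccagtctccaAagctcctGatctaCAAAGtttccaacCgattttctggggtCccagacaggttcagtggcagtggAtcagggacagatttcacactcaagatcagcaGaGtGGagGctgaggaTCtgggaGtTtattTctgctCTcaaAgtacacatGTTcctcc

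Neither segment had a near-identical copy among the 376 immunoglobulin V genes and pseudogenes of that annotation. Ighv1-47 shared 292 of its 351 coding bases with Ighv1-74, 83.2%, and 84.0% with the pseudogene Ighv1-86. Igkv1-88 shared 307 of 362 with Igkv1-110, 84.8%. None of these relatives is among the genes in the table. The listed V gene closest to Ighv1-47 was Ighv1-55, which shared 289 of the 351 bases, 82.3%. The longest stretch that Ighv1-47 shared exactly with any other V segment was 43 bases, with Ighv1-73, and for Igkv1-88 it was 31 bases. An exact 50-base match to another reference V segment was therefore absent for both, where the reads were 150 bases long. Reads that cross the junction or carry mutations fall outside this comparison, and the sources used here do not say how the authors placed reads shared between genes.

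Ighv1-47 was highest in 2 control libraries. Its read counts in control replicates 1 to 4 were 155, 117, 39 and 9, and in propionate replicates 1 to 4 they were 7, 1, 5 and 11. In scaled counts the controls held 148, 109, 40.1 and 10.9 and the propionate libraries 6.88, 0.978, 4.61 and 10.9. Control replicates 1 and 2 stood far above the rest, and control replicate 4 lay among the propionate libraries. The raw counts of the groups overlapped. After scaling, control replicate 4 lay above propionate replicate 4 by 0.0304 scaled counts, far less than the counting error of 9 and 11 reads, for which the exact 95% Poisson intervals were 5.0 to 20.8 and 5.44 to 19.5 scaled counts. The groups are thus separate in scaled counts by that margin alone, where 23.5% of all rows were separate and lower with propionate.

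The mean of Ighv1-47 was 77.1 ± 62.9 scaled counts in controls and 5.84 ± 4.16 with propionate (SD, n = 4), 13.2-fold higher in controls. The controls differed 13.6-fold among themselves between replicates 1 and 4, as much as the group means differed from each other. The quasi-likelihood fit of edgeR across all rows gave a log2 difference, propionate minus control, of -3.71 ± 0.78 (SE). That in the authors' deposited table was -3.73, with an adjusted p of 0.000182, where 5.33% of all rows were past 0.05 and lower.

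Igkv1-88 was highest in 3 propionate libraries. Its read counts in control replicates 1 to 4 were 7, 4, 6 and 3, and in propionate replicates 1 to 4 they were 89, 2, 38 and 20. In scaled counts the controls held 6.70, 3.73, 6.16 and 3.64 and the propionate libraries 87.4, 1.96, 35.0 and 19.8. The 4 controls were alike and near the floor of detection, since 3 reads correspond to between 2.80 and 3.64 scaled counts there. Propionate replicate 2 lay below every control, so the groups overlapped, while the other propionate libraries lay above all controls.

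The mean of Igkv1-88 was 5.06 ± 1.60 scaled counts in controls and 36.1 ± 36.8 with propionate (SD, n = 4), 7.13-fold higher with propionate. The SD of the propionate group was as large as its mean, and propionate replicate 1 alone held 53.2% of the scaled counts of all 8 libraries. The edgeR log2 difference, propionate minus control, was 2.79 ± 0.83 (SE). That in the authors' deposited table was 2.83, with an adjusted p of 0.0473, where 2.8% of all rows were past 0.05 and higher.

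**Figure D1:**
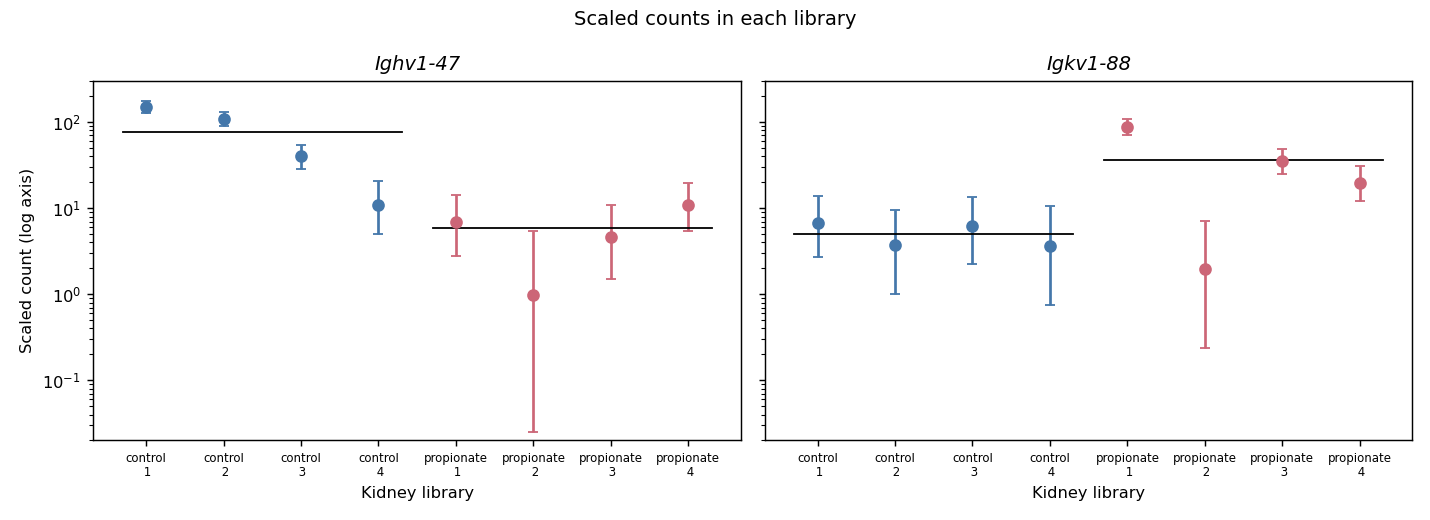
Scaled counts of Ighv1-47 and Igkv1-88 in each of 8 kidney libraries on a log axis, with exact 95% Poisson intervals for counting error and black lines for the group means (n = 4). Control replicate 4 of Ighv1-47 lies at 10.9, as does propionate replicate 4, and propionate replicate 2 of Igkv1-88 lies at 1.96, below every control.

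The pair moved in opposite directions between groups, and no library was high for both. Control replicate 1, the highest for Ighv1-47, had 7 reads of Igkv1-88. Propionate replicate 1, the highest for Igkv1-88, had 7 reads of Ighv1-47. Propionate replicate 2 was the lowest for both, with 1 and 2 reads, and it was also the library with the fewest reads over all listed V genes, 88 in all. Per length, the highest library of Ighv1-47 reached 15.2 FPKM, a level per gene length and library total, and that of Igkv1-88 reached 9.79 FPKM. The exact 95% Poisson intervals were 12.9 to 17.8 FPKM and 7.86 to 12.0 FPKM, so the peak of Ighv1-47 was the higher of them for its length. Control replicate 4, propionate replicate 1, propionate replicate 3 and propionate replicate 4 for Ighv1-47, and all controls for Igkv1-88, lay between 0.414 and 1.13 FPKM.

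The summed reads of the listed V genes also differed between libraries, which bears on how a single V gene reads. In scaled counts the 19 V genes summed to 4408, 1061, 1468 and 657 in control replicates 1 to 4 and to 982, 86.1, 747 and 292 in propionate replicates 1 to 4. The highest library exceeded the lowest 51.2-fold, and the groups overlapped. The 8 heavy chain V genes summed to between 205 and 347 scaled counts in controls and between 22.8 and 167 with propionate. The 11 kappa V genes summed to between 310 and 4204 in controls and between 60.7 and 815 with propionate.

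As a share of the listed heavy chain V reads, Ighv1-47 did not separate the groups. It made up 72.4% of 214 reads in control replicate 1 (exact 95% binomial interval 65.9% to 78.3%), 39.5% of 296 in control replicate 2 (33.9% to 45.3%), 13.0% of 301 in control replicate 3 (9.38% to 17.3%) and 3.15% of 286 in control replicate 4 (1.45% to 5.89%). In propionate replicate 1 it made up 4.12% of 170 reads (1.67% to 8.30%). In propionate replicates 2 and 3 it made up 3.85% of 26 (0.0973% to 19.6%) and 4.27% of 117 (1.40% to 9.69%). In propionate replicate 4 its 11 reads were 47.8% of 23 (26.8% to 69.4%), above the shares in control replicates 3 and 4, with an interval that overlaps those of control replicates 1 and 2. A low count of Ighv1-47 therefore went with a low share in propionate replicates 1 and 3 and in control replicate 4, and not in propionate replicate 4. The share in propionate replicate 2 rests on 1 read, and its interval holds the share in control replicate 3.

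Given as a share of the listed kappa V reads, Igkv1-88 was higher in each propionate library than in any control, propionate replicate 2 included. In control replicates 1 to 4 it made up 0.159% of 4389, 0.474% of 843, 0.532% of 1128 and 1.18% of 255 reads. With propionate it made up 10.7% of 830 reads in replicate 1 (8.70% to 13.0%), 3.23% of 62 in replicate 2 (0.393% to 11.2%), 5.48% of 693 in replicate 3 (3.91% to 7.45%) and 7.35% of 272 in replicate 4 (4.55% to 11.1%). The interval of propionate replicate 2, which rests on 2 reads, reached below the shares of control replicates 2, 3 and 4. That of control replicate 4 was 0.243% to 3.40%, which holds the share in propionate replicate 2. The other listed kappa genes with a higher mean with propionate, Igkv2-109 and Igkv4-81, separated the groups by share too. Igkv2-109 made up 0% to 0.712% in controls and 5.34% to 16.9% with propionate. Igkv4-81 made up 0.0228% to 1.18% and 1.20% to 14.6%, a separation that lay within counting error. It rested on 3 of 255 reads in control replicate 4 (0.243% to 3.40%) and 10 of 830 in propionate replicate 1 (0.579% to 2.20%). Igkv10-96 made up 38.8% to 66.0% of these reads in controls and 43.5% to 68.4% with propionate, so its shares overlapped. Its mean was lower with propionate (959 against 223 scaled counts), with 2773 in control replicate 1, and its medians were 455 and 245. How far changes in the other kappa genes moved the share of Igkv1-88 was not tested. Since the denominators hold only genes selected for a difference between the groups, these shares describe the listed V genes and not all antibody transcripts. The intervals cover counting error alone.

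**Figure D2:**
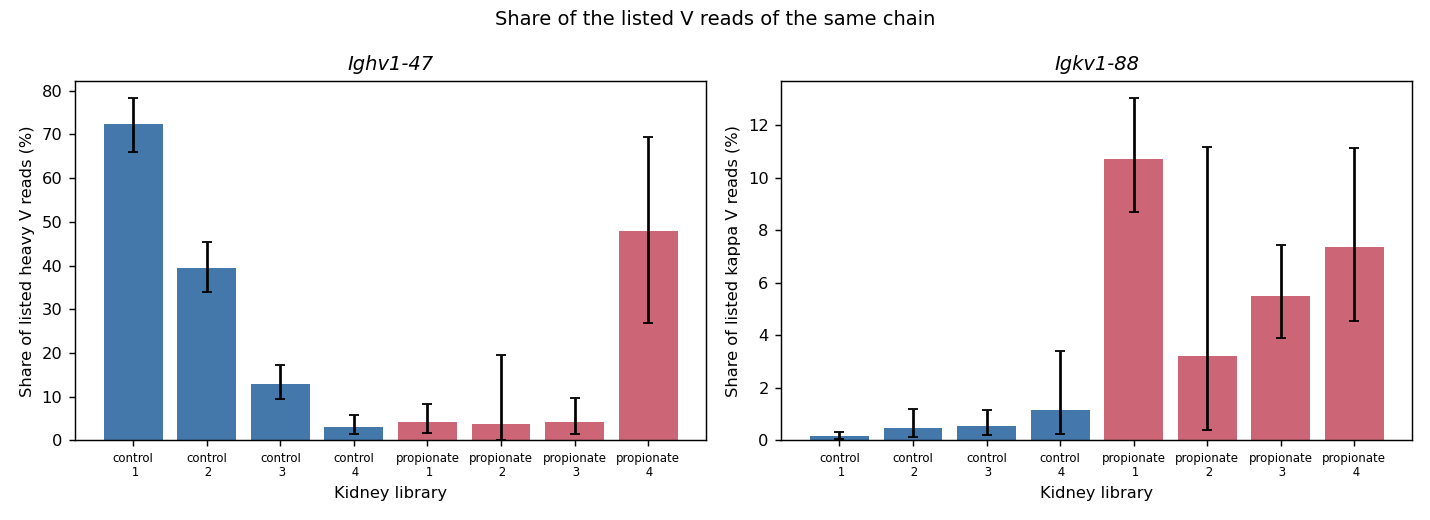
Share of the listed heavy chain V reads that were Ighv1-47 and of the listed kappa V reads that were Igkv1-88, in percent, per library, with exact 95% binomial intervals. Ighv1-47 stood at 47.8% in propionate replicate 4 and 3.15% in control replicate 4, and Igkv1-88 ran from 0.159% to 1.18% in controls and from 3.23% to 10.7% with propionate.

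The other 17 V genes were uneven too. Of all 19, 13 had a lower mean with propionate, 5 of the heavy chain and 8 of the kappa chain, and 6 a higher one, 3 of each chain. By edgeR, 16 of the 19 had an adjusted p under 0.05 over the listed genes, 11 lower and 5 higher, where 90.5% of all rows did (44.3% lower and 46.2% higher), as their selection on these libraries favours. The median log2 difference was -2.48 for the 19 and 0.14 for all rows, each over genes of both directions. A gene with a wide spread within groups is listed only if its difference is large. The V genes spread far more widely than most rows, so the sizes of these 2 medians are not comparable. In scaled counts the groups did not overlap in 2 of the 19, Ighv1-47 and Ighv1-4, where 47.6% of all rows did not overlap. In raw counts they did not overlap in 0 of the 19, where 28.6% of all rows did not. Ighv1-4 had at most 7 reads in any library, and its adjusted p is listed as 1 in the authors' deposited table.

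**Figure D3:**
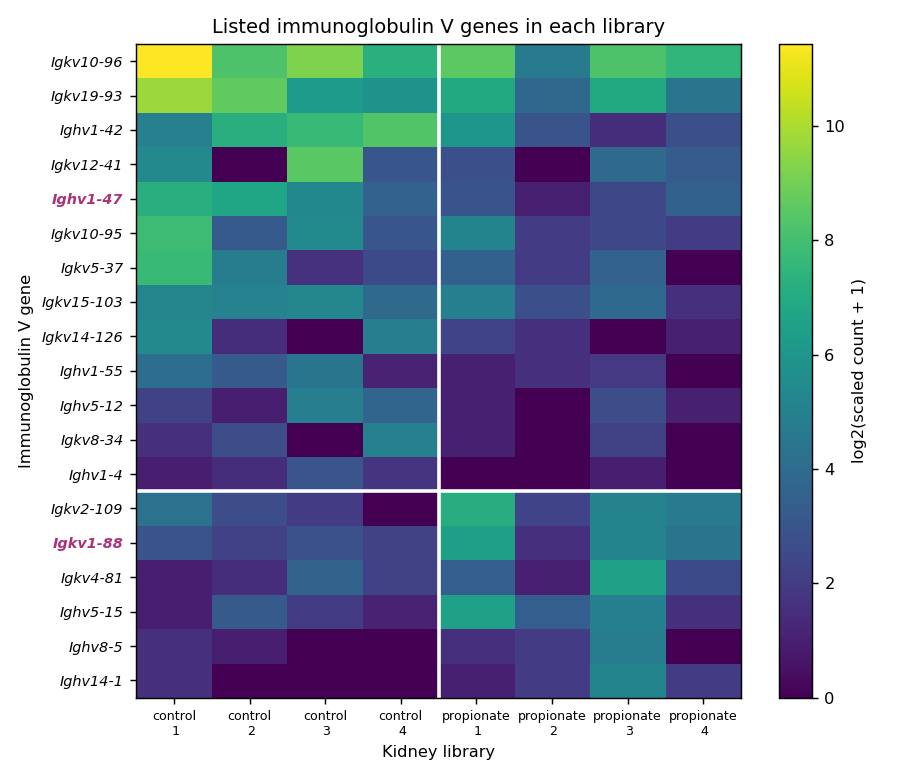
log2(scaled count + 1) of the 19 listed immunoglobulin V genes (vertical axis) in 8 kidney libraries (horizontal axis), with genes lower with propionate above the white line and the pair in bold. Rows lower with propionate peaked in control replicate 1, 3 or 4 and rows higher with propionate in propionate replicate 1 or 3.

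The library with the most reads differed from gene to gene. Control replicate 1 was the highest for 6 of the 19, control replicate 3 for 5, control replicate 4 for 2, and propionate replicates 1 and 3 for 3 each, while control replicate 2 and propionate replicates 2 and 4 were the highest for 0. Ighv1-47 shared its highest library with 5 kappa genes, among them Igkv10-96, the most abundant listed V gene at 2773 scaled counts, and Igkv19-93 at 844. Control replicate 2, the second highest for Ighv1-47, was also the second highest for Igkv19-93, at 394 scaled counts, and for Igkv5-37, at 27.0.

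Igkv1-88 shared its highest and second highest libraries with 2 genes. Ighv5-15, a heavy chain V gene, held 91.3, 9.78, 29.5 and 1.98 scaled counts in propionate replicates 1 to 4. Igkv2-109, the listed V gene nearest to Igkv1-88 in sequence at 72.4% of its bases, held 138, 3.91, 34.1 and 25.8. Propionate replicate 1 was the highest and propionate replicate 3 the second highest for all 3 genes. In control replicates 1 to 4 Ighv5-15 held 0.958, 8.39, 3.08 and 1.21, so that its propionate replicate 4 lay among the controls, unlike that of Igkv1-88.

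The listed neighbours of the pair on the chromosome were highest in another library, or moved the other way between groups. In the coordinates of the table, whose build the sources used here do not name, Ighv1-47 lies on chromosome 12 from 114954728 to 114955200 and Igkv1-88 on chromosome 6 from 68839249 to 68840015, both on the minus strand. Ighv1-42, the nearest listed gene to Ighv1-47 at 53563 bases, was highest in control replicate 4, at 320 scaled counts, where Ighv1-47 was at 10.9, and lowest among controls in control replicate 1, at 30.6, where Ighv1-47 peaked. Its mean went from 176 ± 121 in controls to 19.6 ± 29.6 with propionate (SD, n = 4). Ighv8-5, at 75979 bases on the other side, went the other way, from 0.712 ± 0.915 to 8.14 ± 13.1. Igkv19-93, at 125484 bases from Igkv1-88, went from 344 ± 367 to 69.5 ± 60.9, and Igkv4-81, at 127726 bases, from 4.44 ± 4.71 to 27.2 ± 44.1, almost all of it in propionate replicate 3 at 93.1.

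The spread within groups set the V genes apart from most of the table. The coefficient of variation of scaled counts was 81.5% in controls and 71.2% with propionate for Ighv1-47, and 31.7% and 102% for Igkv1-88. The medians were 109% and 118% over the 19 V genes and 8.19% and 11.2% over all 1931 rows. Its biological part as fitted by edgeR, on a scale where 1 is a spread equal to the mean, was 0.67 for Ighv1-47 and 0.72 for Igkv1-88, against a median of 0.88 over the V genes and 0.10 over all rows. Igkv10-96, with up to 2895 reads in a library, had coefficients of 128% and 68.5%.

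The same holds for how much of a gene came from 1 library. The highest library held 44.7% of the summed scaled counts of Ighv1-47 and 53.2% of those of Igkv1-88, where an equal spread over 8 libraries would give 12.5%. The median was 58.7% over the 19 V genes, which ranged from 22.0% for Igkv15-103 to 82.7% for Igkv12-41, and 15.4% over all rows. Of the 64 rows above 40%, 17 were V genes. These values are descriptions, since the pair was picked for its uneven counts.

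**Figure D4:**
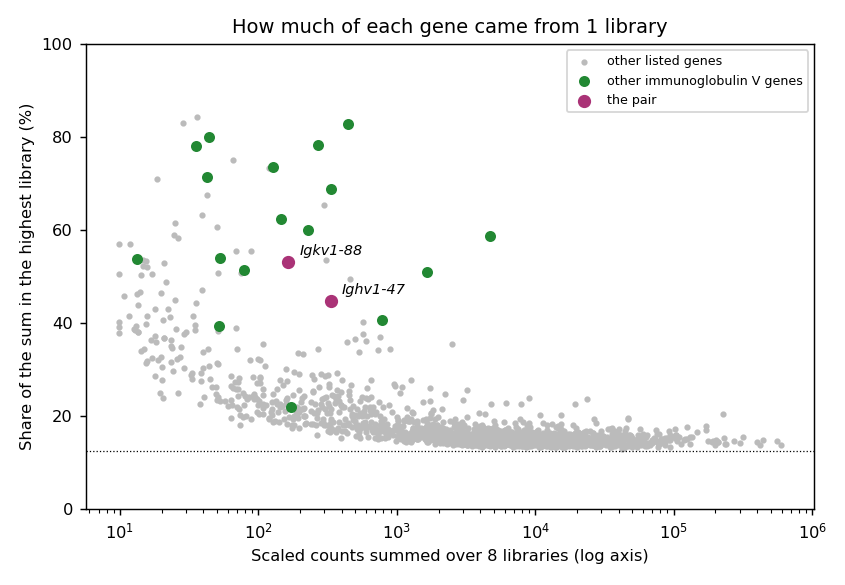
Share of each gene's summed scaled counts that came from its highest library, in percent, against that sum on a log axis, for 1931 listed genes, with the dotted line at 12.5%, an equal share. Ighv1-47 lies at 44.7% and Igkv1-88 at 53.2%, and 17 of the 19 V genes lie above 40%.

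Leaving out single libraries kept the sign of both differences. For Ighv1-47 the log2 difference, propionate minus control, ranged from -4.18 without propionate replicate 4 to -3.19 without control replicate 1. For Igkv1-88 it ranged from 1.88 without propionate replicate 1 to 3.19 without propionate replicate 2, the one propionate library that overlapped the controls. By edgeR with adjustment over the listed genes, the pair's calls ended for Ighv1-47 without control replicate 3 (-3.92, adjusted p = 0.0527) and without propionate replicate 3 (-3.61, adjusted p = 0.055). Those of Igkv1-88 ended without control replicate 2, 3 or 4 (2.66, 2.90 and 2.68) and without propionate replicate 3 or 4 (2.81 and 2.99), at edgeR adjusted p-values from 0.0545 to 0.0645. All 8 libraries gave 1748 passing rows over the whole table. That number was 154, 16 and 163 in the fits that left out control replicates 2, 3 and 4, and 13 and 133 in those that left out propionate replicates 3 and 4.

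**Figure D5:**
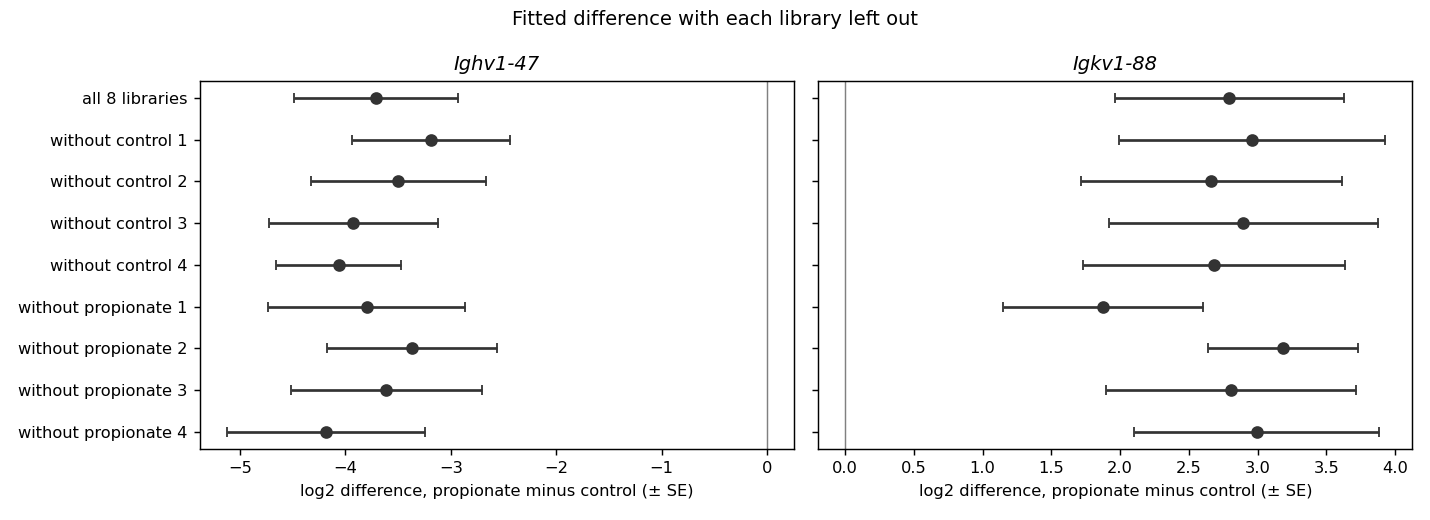
Log2 difference, propionate minus control, fitted by edgeR for Ighv1-47 and Igkv1-88 with all 8 libraries and with each left out in turn; bars are standard errors. Ighv1-47 stays between -4.18 and -3.19 and Igkv1-88 between 1.88 and 3.19.

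Markers of the cells that make antibody could not be set beside the pair. Of 14 B cell markers, 14 plasma cell markers, 13 immunoglobulin constant region genes, 12 genes of immunoglobulin recombination and mutation and 14 signals of B cell attraction and survival, 0 are among the genes in the table, and neither are any of 14 T cell markers. Their levels are not analysed here, so whether the V reads followed the amount of B-lineage RNA was not tested. Of 10 Fc receptors and immunoglobulin carriers 2 are listed, Fcgrt, the neonatal Fc receptor that recycles IgG (6403 ± 307 scaled counts in controls and 7051 ± 441 with propionate), and Fcamr, a receptor for IgA and IgM (134 ± 28.6 and 192 ± 57.1; SD, n = 4). Neither passed, at 0.413 and 0.365 in adjusted p by the authors' deposited table, where 8.13% of all rows passed.

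Of 14 macrophage and dendritic cell markers 3 are listed, Cd68, a lysosomal protein of macrophages, Itgam, an integrin of myeloid cells, and Mrc1, the mannose receptor. All 3 had lower means with propionate and 0 had an adjusted p under 0.05 in the authors' deposited table (0.379, 0.432 and 0.0976), where 8.13% of all rows had one, so the count says nothing particular about them. Their summed level was 721, 341, 721 and 473 scaled counts in control replicates 1 to 4 and 459, 254, 421 and 225 in propionate replicates 1 to 4. Control replicate 1 was high both here and for Ighv1-47, while control replicate 2, the second highest for Ighv1-47, was the lowest control here. The part of these cells in the V gene counts was not tested.

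The genes whose pattern over the 8 libraries was nearest to the pair were not immunoglobulin genes. Likeness was the root mean square difference of log2(scaled count + 1) after each gene was centred on its own mean, taken over 8 libraries and all 1931 rows. For Ighv1-47 the nearest were Gpc2, a cell surface glypican, at 1.06, Kcnh4, a potassium channel, at 1.12, and the non-coding RNA Gm47798 at 1.17, where the median row stood at 2.06. For Igkv1-88 they were the pseudogene Gm18562 at 0.87, Grem1, an antagonist of bone morphogenetic proteins, at 0.95, and Alox12e, a lipoxygenase, at 0.97, where the median row stood at 1.60. A gene with no variation would lie at 2.02 from Ighv1-47 and 1.58 from Igkv1-88, so the likeness was partial. Grem1 held 78.6, 30.3, 83.9 and 59.5 scaled counts in propionate replicates 1 to 4 and between 7.45 and 29.8 in controls, and its propionate replicate 2 was, as for Igkv1-88, the lowest of its group. Gpc2, Gm18562 and Alox12e had 15, 29 and 37 reads over all libraries.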

How the data were processed

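RNA from 8 kidney libraries of MRL-lpr mice, 4 control and 4 propionate, was sequenced as paired reads of 150 bases, per the labels' protocols. Read counts per gene were deposited by the authors as whole numbers, per the file headers. The deposited scaled counts are a signal, the counts divided by 1 size factor per library, and group means of them are listed too. The deposited FPKM follow gene length and library total, per the file headers. Log2 fold changes were deposited both as control over propionate and as the negative, of which the second is printed. The p-values, raw and adjusted, were deposited by the authors. The build mm10 and the tool DESeq2 are named in the submitters' processing notes. Of 1913 identifiers shared with GENCODE M21, 44 had the same start and end, so the coordinates follow a build that the sources used here do not name.

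Groups came from the treatment labels. Each library's total was recovered from its counts, FPKM and gene lengths. The quasi-likelihood test of edgeR 4.0.16 (R 4.3.3) was fitted over all 1931 rows, each of which had a summed count of at least 10, with the authors' size factors and Benjamini-Hochberg adjustment over these rows. Those rows were preselected on the same contrast, which makes passing easy. DESeq2 1.42.0, TMM factors, totals alone, no filter, the default expression filter of edgeR, robust dispersion, a prior count of 2, the replicate number as a block and leaving out each library were the alternatives. The fits were tested on simulated data whose biological spread followed the trend fitted by edgeR over all rows. That trend was 0.33 for Ighv1-47 and 0.36 for Igkv1-88, below their own 0.67 and 0.72. The simulated rows were not preselected either, so that test does not cover genes such as the pair. Sequence identity came from global alignment of coding bases. Intervals are at 95% and cover counting error. The genes, lists and tests were chosen with earlier results of these data known. The genes named are the pair, the other listed antigen receptor genes, the 3 most alike rows for each, listed members of the marker lists, and the closest relatives in sequence.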

Additional observations from a re-analysis of the deposited data

Results flagged for a closer look

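A library stands apart in its group of 4 when its gap to the nearest other exceeds Dixon's 95% critical value. The gap is taken as a share of the group's whole range. Chance alone passes this value in about 1 in 20 groups of normally distributed values. V gene counts spread about as widely as their means and include groups with reads in only 1 library, so that rate need not hold. Among the 38 combinations of a V gene and a group, 10 passed, and Ighv1-47 and Igkv1-88 were not among them, since each spread over several libraries. Propionate replicate 3 stood apart high for Ighv14-1 (0.942 of the range), Igkv4-81 (0.904), Ighv8-5 (0.894) and Ighv1-4 (1.0, from a single read). Propionate replicate 1 did so for Ighv1-42 (0.919) and Igkv10-95 (0.947). Control replicate 1 did so for Igkv5-37 (0.881), Igkv10-95 (0.838) and Ighv14-1 (1.0, from 2 reads), and control replicate 3 for Igkv12-41 (0.888).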

How the results depend on the processing

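Both log2 differences kept their sign under every alternative run that gave a value. Across those that kept all libraries, Ighv1-47 ranged from -3.75 with TMM factors to -3.35 with a prior count of 2. Igkv1-88 ranged from 2.43 with a prior count of 2 to 2.83 by DESeq2. Both calls held where the gene was tested, which the choice of the pair and of the rows on these same libraries favours. With each library left out the log2 differences ranged from -4.18 to -3.19 and from 1.88 to 3.19. The default expression filter of edgeR removed Igkv1-88 and left 7 of 19 V genes, of which 6 passed, where 1617 of all 1793 rows left did and where 16 of 19 V genes passed with the filter on the sum. Leaving out 1 library gave 0 to 12 V genes and 13 to 1463 of all rows. The 0 arose by edgeR without control replicate 3 and without propionate replicate 3, where 14 and 13 V genes had an unadjusted p under 0.05 and DESeq2 called 5 and 7. The counts of V genes without control replicates 1, 2 and 4 and propionate replicates 2 and 4 were 6, 2, 2, 9 and 2, and of all rows 601 without control replicate 1. Of all 1748 rows called, 893 were higher and 855 lower with propionate, and with TMM factors 545 were higher and 875 lower. The labels do not say that equal replicate numbers mark a shared litter, batch or day. Deviations from the group means correlated between same-numbered libraries at 0.23, 0.25, 0.03 and 0.17. Control replicates 1, 2 and 4 correlated best with the propionate library of their own number, and control replicate 3 with propionate replicate 1. Whether the libraries were paired was not tested. With the replicate number as a block, the log2 differences were -3.41 and 2.53, with 18 V genes and 1712 rows past the threshold. The counts of Ighv1-47 with propionate and of Igkv1-88 in controls, 1 to 11 reads per library, limit how finely either low group can be read.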

Other observations

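Beside the 19 V genes, the table lists 1 immunoglobulin V pseudogene and 1 T cell receptor V gene. Ighv3-2, the pseudogene, had 0, 14, 4 and 1 reads in control replicates 1 to 4 and 0 in each propionate library, where 3 reads correspond to between 2.77 and 2.97 scaled counts. Trgv2, a V segment of the gamma chain, had the smallest coefficients of variation of the antigen receptor genes with reads in both groups, 16.7% in controls and 25.3% with propionate. It had 6, 7, 7 and 7 reads in control replicates 1 to 4 and 3, 2, 2 and 3 in propionate replicates 1 to 4, a mean of 6.99 ± 1.17 against 2.43 ± 0.61 scaled counts (SD, n = 4), and its groups did not overlap in counts, as in 28.6% of all rows. Its adjusted p is listed as 1 in the authors' deposited table.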
